A study of Mus musculus with 9 samples.

Results

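The goblet and mucous airway genes are a set of 8: the gel-forming mucins Muc5ac and Muc5b, the trefoil peptide Tff2, the disulfide isomerase Agr2, the secreted airway protein Bpifb1, the antimicrobial lectin Reg3g, and the transcription factors Spdef and Foxa3. They were chosen by name, with earlier results of these data known. Every array probe whose transcript carried one of these names was read, which gave 9 probes. Each of these probes had 1 spot on the array, and Muc5b had 2 probes while the other genes had 1. Of the 8 genes, 7 entered the test among 16842 genes, because the Foxa3 probe did not pass the filter on dim probes.

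The lungs came from mice in which both alleles of the TRF1 gene (Terf1) carried loxP sites (TRF1flox/flox). TRF1 is a protein of the shelterin complex that caps telomeres. The other groups also carried SPC-cre, a cre recombinase named for surfactant protein C, whose promoter is used to direct cre to alveolar type II cells. All mice, controls included, received tamoxifen at 250 mg per kg body weight per week from 8 weeks of age. The control group held 3 TRF1flox/flox littermates without cre, taken after 9 months at 11 months of age. The 3-month cre group held 3 mice taken after 3 months at 5 months of age, and the 9-month cre group held 3 mice taken after 9 months at 11 months of age. The labels call the 3 arrays of each group biological replicates. Because all controls were taken after 9 months, the 3-month comparison sets 5-month-old cre mice against 11-month-old controls, and age and genotype cannot be told apart in it.

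Goblet cells are secretory cells of the airway lining that store mucins in granules. SPDEF drives their differentiation downstream of interleukin-13 signalling, FOXA3 acts with it, and AGR2 helps to fold mucins in the endoplasmic reticulum. In the healthy mouse lung true goblet cells are rare, and MUC5B is made largely by club and other secretory cells of the airways, so that these genes report on a wider secretory program than that of goblet cells alone.

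RNA from whole lung was labelled with Cy3 and read on 1-colour arrays. Levels are given as log2 of the processed signal minus the log2 of that array's 75th percentile, so that a level of 0 is the brightness of the probe at that percentile. The 75th percentile ran from 958.4 to 1430 units of signal over the 9 arrays, the local background from 28 to 35, and no spot was saturated. The arrays came on 2 slides: slide 1 held the 3 controls and 3-month replicate 1, and slide 2 held 3-month replicates 2 and 3 and all 9-month arrays. The share of probes well above background was 62.74% to 64.88% on slide 1 and 67.94% to 72.4% on slide 2. Read from Xist, the controls were all male, while 2 of 3 mice in each cre group were female. The targeted gene Terf1 was lower than control by 0.52 ± 0.19 (SE, log2) at 9 months (adjusted p = 0.131) and by 0.55 ± 0.19 at 3 months (adjusted p = 0.19), neither called in whole lung, and the type II cell marker Sftpc differed by 0.34 ± 0.16 and 0.14 ± 0.16 (adjusted p = 0.222 and 0.685). In bulk lung RNA, fewer cells of a type and less RNA per cell cannot be told apart.

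Bpifb1 and Reg3g were called at 9 months against control and had levels that followed each other closely over the arrays, so the DNA before their start sites is shown. RefSeq promoters on GRCm38.p6 were matched for 5 of the 8 genes (Spdef, Foxa3, Agr2, Bpifb1 and Reg3g). The 250 bases before each start are printed 5′ to 3′ on the gene's strand. Capitals mark matches, on either strand, to the motifs named below. Bpifb1 has 2 starts in RefSeq, with windows at chr2:154190568-154190817 and chr2:154200130-154200379 (both + strand), and the Reg3g window is chr6:78468875-78469124 (- strand).
Bpifb1, first start: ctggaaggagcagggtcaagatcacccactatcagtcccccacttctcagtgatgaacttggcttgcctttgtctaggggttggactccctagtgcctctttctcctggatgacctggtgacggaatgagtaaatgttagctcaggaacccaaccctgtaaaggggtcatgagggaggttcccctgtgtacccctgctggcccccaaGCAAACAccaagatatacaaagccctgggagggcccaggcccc
Bpifb1, second start: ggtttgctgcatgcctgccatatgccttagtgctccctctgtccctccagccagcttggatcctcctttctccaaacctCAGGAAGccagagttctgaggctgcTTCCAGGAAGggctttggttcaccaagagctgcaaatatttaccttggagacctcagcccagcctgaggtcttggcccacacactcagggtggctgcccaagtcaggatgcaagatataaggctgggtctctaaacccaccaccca
Reg3g: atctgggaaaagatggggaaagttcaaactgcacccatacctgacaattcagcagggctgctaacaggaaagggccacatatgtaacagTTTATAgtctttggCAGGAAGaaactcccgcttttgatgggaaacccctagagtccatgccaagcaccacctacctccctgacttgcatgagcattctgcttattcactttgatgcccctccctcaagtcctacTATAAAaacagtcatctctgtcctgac

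The motifs searched were the forkhead forms TGTTTAC and TGTTTGC, and the ETS forms CCGGAAG and CAGGAAG. The STAT form TTCNNNGAA and the TATA box TATAAA were searched as well. Binding of SPDEF or any other factor to a match was not tested. Over all 32851 windows of the same length, CAGGAAG was found in 10.8%, TGTTTGC in 4.3%, TTCNNNGAA in 7.02% and TATAAA in 12.4%. The first Bpifb1 window held TGTTTGC on the opposite strand, read as GCAAACA, with its first base at -43 from the start. The second held CAGGAAG at -171 and again at -143, where it overlapped a match to TTCNNNGAA at -146. The Reg3g window held CAGGAAG at -147 and TATAAA at -27, with a further TATAAA on the opposite strand at -161. The letters shared by Bpifb1 (second start) and Reg3g were thus CAGGAAG. The Foxa3 window held TATAAA at -36, and the Spdef and Agr2 windows held none of the 6 motifs. TGTTTAC (3.17% of all windows) and CCGGAAG (6.91%) were in none of the 6 windows.

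Seen as a set, the mucous genes were at their lowest in the lungs of cre mice after 9 months. All 7 tested genes had a lower mean there than in controls and than in 3-month cre lungs. The array with the lowest level of all 9 was a 9-month array for each of the 7. For 5 of the 7 the highest of all 9 arrays was 3-month replicate 1, the one cre array on slide 1, and for Muc5ac and Spdef it was control replicate 1.

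**Figure D1:**
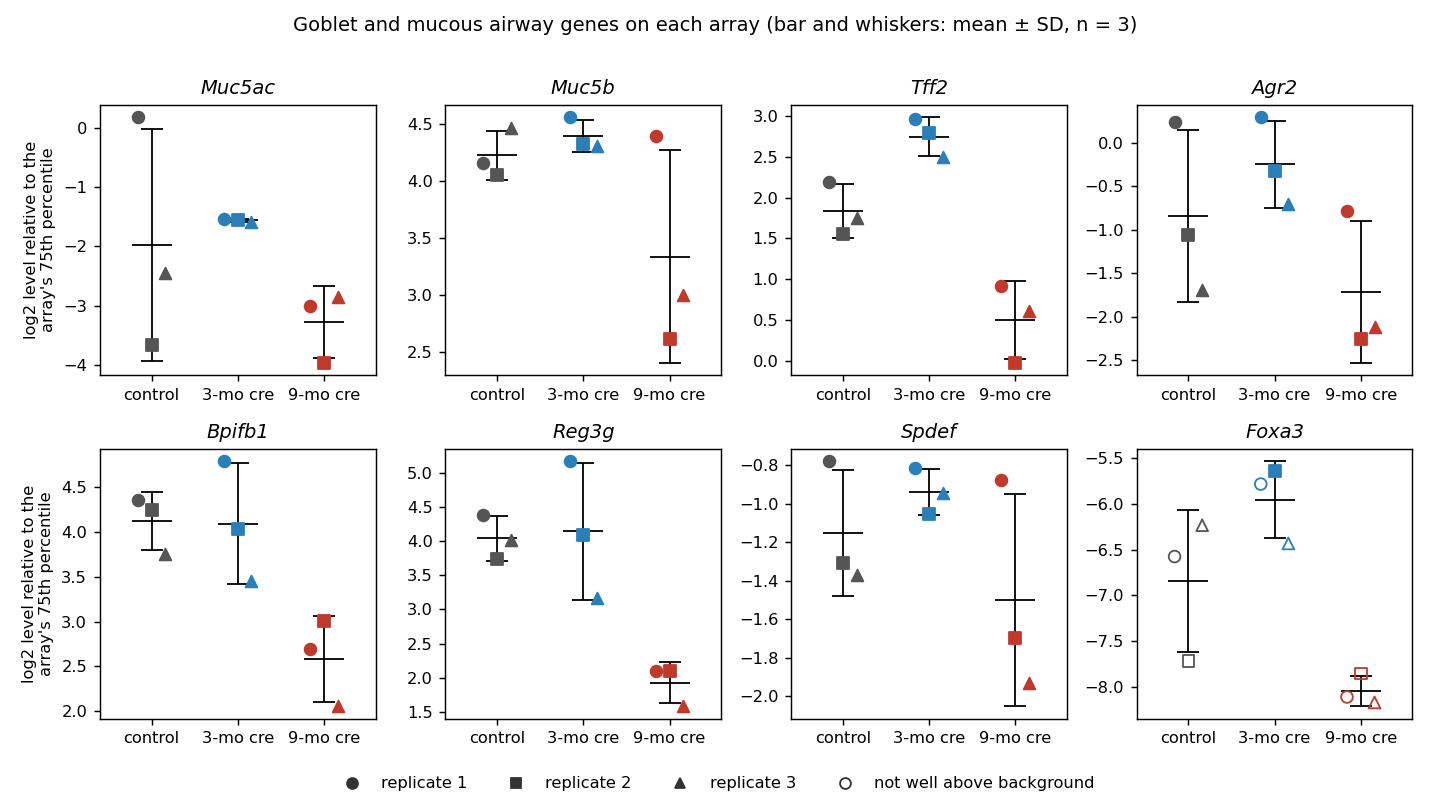
Levels of the 8 genes on the 9 arrays, as log2 relative to the array's 75th percentile, with the 3 arrays of each group side by side and the mean ± SD (n = 3) as a bar with whiskers; open symbols were not well above background. The 9-month arrays of Tff2, Bpifb1 and Reg3g lay below all control arrays. For Muc5b, Agr2 and Spdef, 9-month replicate 1 lay within the range of the controls. Foxa3 was well above background on 1 array.

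Muc5ac encodes the mucin that goblet cells make when the airway is stimulated. Its log2 level was 0.18, -3.66 and -2.44 in control replicates 1, 2 and 3. It was -1.53, -1.56 and -1.58 in the 3-month cre lungs and -3.00, -3.96 and -2.86 in the 9-month cre lungs. The controls thus spanned nearly the whole range of the series, with replicate 1 above every other array, while the 3-month arrays lay within a few hundredths of each other. The 9-month mean was 1.30 ± 0.82 (SE) below control on the log2 scale (95% interval -3.18 to 0.58, adjusted p = 0.332), and the groups overlapped. All 9-month arrays were below all 3-month arrays, by 1.72 ± 0.82 in the mean, without a call (adjusted p = 0.207).

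Muc5b encodes the mucin that maintains mucociliary clearance in the resting airway. Its brighter probe read 4.16, 4.05 and 4.47 in controls, 4.56, 4.33 and 4.31 at 3 months, and 4.39, 2.61 and 3.00 at 9 months. Replicate 1 of the 9-month group was at the level of the controls, and replicates 2 and 3 were below every other array. The mean difference from control was -0.89 ± 0.40 (adjusted p = 0.188), and from 3-month cre -1.06 ± 0.40 (adjusted p = 0.125). On the second Muc5b probe, 9-month replicates 2 and 3 were again below every other array and replicate 1 within the range of the controls, at 1.45, -0.35 and 0.23 in the 9-month lungs against 1.19 to 2.07 in controls, with differences of -1.07 ± 0.42 from control and -1.41 from 3-month cre, neither called. When 9-month replicate 1 was left out, Muc5b was called against control (-1.42, adjusted p = 0.0265) and against 3-month cre (-1.59, adjusted p = 0.0449). The remaining 9-month replicates 2 and 3 read female and were on slide 2, while all controls read male and were on slide 1. Sex and slide thus cannot be told apart from group in that call against control.

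Tff2 encodes a trefoil peptide that is secreted with mucins and aids the repair of mucosal surfaces. Its level was 2.20, 1.56 and 1.75 in controls, 2.96, 2.79 and 2.50 in 3-month cre lungs and 0.92, -0.03 and 0.61 in 9-month cre lungs. It was the 1 tested member whose 3 groups did not overlap at all: every 3-month array was above, and every 9-month array below, the controls. In signal units the control mean was 3998 ± 809 (SD, n = 3), the 3-month mean 8834 ± 2087 and the 9-month mean 1524 ± 364. Tff2 fell 2.53-fold against control at 9 months (-1.34 ± 0.26, adjusted p = 0.0286) and 4.76-fold against 3-month cre (-2.25 ± 0.26, adjusted p = 0.0179). The 3-month mean was 1.88-fold that of controls (0.91 ± 0.26, 95% interval 0.31 to 1.52), a difference that did not pass the test (adjusted p = 0.139).

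Agr2, the endoplasmic reticulum protein needed for mucin folding, read 0.24, -1.06 and -1.70 in controls. It read 0.29, -0.32 and -0.70 in 3-month and -0.78, -2.25 and -2.12 in 9-month cre lungs. Control replicate 1 and 3-month replicate 1 were the highest arrays, and 9-month replicate 1 lay within the range of the controls. The 9-month difference was -0.88 ± 0.55 from control (95% interval -2.14 to 0.39, adjusted p = 0.333) and -1.47 ± 0.55 from 3-month cre (adjusted p = 0.128), where the arrays did not overlap.

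Bpifb1 encodes a secreted protein of the BPI fold family, abundant in airway mucus. Its level was 4.36, 4.25 and 3.76 in controls, 4.8, 4.04 and 3.45 in 3-month cre lungs, and 2.69, 3.01 and 2.05 in 9-month cre lungs. The control and 3-month arrays were mixed, and all 9-month arrays were below both. The signal was 19483 ± 3350 in controls, 24104 ± 11937 at 3 months and 6600 ± 2336 at 9 months (SD, n = 3). Bpifb1 fell 2.91-fold against control at 9 months (-1.54 ± 0.36, adjusted p = 0.0454). The difference from 3-month cre was of like size, -1.51 ± 0.36, and missed the threshold (adjusted p = 0.0529).

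Reg3g encodes a C-type lectin that binds and kills Gram-positive bacteria and is released by airway and gut epithelium. Its level was 4.37, 3.73 and 4.01 in controls. In 3-month cre lungs it was 5.17, 4.09 and 3.17, the widest spread of the 3 groups, with replicate 1 highest and replicate 3 lowest of the arrays outside the 9-month group. In 9-month cre lungs it was 2.10, 2.10 and 1.58, all below every other array. The 9-month mean was 4.32-fold lower than control (-2.11 ± 0.44, adjusted p = 0.034) and 4.65-fold lower than 3-month cre (-2.22 ± 0.44, adjusted p = 0.0375). The difference at 3 months was 0.11 ± 0.44 (95% interval -0.91 to 1.12).

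Spdef, the ETS factor of goblet cell differentiation, moved least of the members against control at 9 months. Its level was -0.78, -1.31 and -1.37 in controls, -0.82, -1.05 and -0.94 in 3-month and -0.88, -1.69 and -1.93 in 9-month cre lungs. As for Muc5b, 9-month replicate 1 was within the range of the controls and replicates 2 and 3 were below every other array. The difference was -0.35 ± 0.27 from control (95% interval -0.97 to 0.28, adjusted p = 0.431) and -0.56 ± 0.27 from 3-month cre (adjusted p = 0.214). Foxa3, the forkhead factor of the same program, was well above background on 1 of 9 arrays (3-month replicate 2) and was not tested. Its signal there was 28.5 units, and on the other arrays it ran from 3.48 to 23.7, so no fold is given.

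Against control at 9 months, 3 of the 7 tested genes fell (Reg3g, Bpifb1 and Tff2) and none rose. The set was chosen with earlier results of these data known, so the all-gene shares given beside it describe it and do not test it. Among all genes tested, 2.81% fell and 3.65% rose in this comparison, 6.45% in either direction, by limma's moderated test with Benjamini-Hochberg adjustment. The same 3 members had all 9-month arrays below all controls, which held for 15% of all genes. The median log2 difference of the 7 was -1.30, against 0.02 over all genes, and all 7 were negative; 3 of the 7 had an unadjusted p under 0.05, as did 27.3% of all genes. Among all genes the deposited values moved the split of calls from 614 higher and 473 lower to 554 and 651, and they kept 3 of the 7 members called.

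Against control at 3 months none of the 7 was called by limma, where 0.451% of all genes were (0.368% higher and 0.0831% lower). One member, Tff2, had an unadjusted p under 0.05, as did 18.7% of all genes. It was also the one member with no overlap between the groups, which held for 31% of all genes, 19.6% in the higher direction. The median of the 7 was 0.21, against 0.05 over all genes, with 6 positive and 1 negative.

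Between the 2 cre groups, Tff2 and Reg3g were lower at 9 months than at 3 months, so 2 of 7 were called, with 3.2% of all genes called lower, 1.79% higher and 4.99% in either direction. At an unadjusted p under 0.05 the count was 5 of 7, against 28.7% of all genes. For 5 of the 7 (all but Muc5b and Spdef) every 9-month array was below every 3-month array, against 19% of all genes. The median of the 7 was -1.51, against -0.03 over all genes. Some other gene lists, described below, were also mostly negative here. Club cell markers had 16 of 18 negative (median -0.47) and alveolar type II markers 12 of 15 (median -0.57). Genes for mucus secretion and maturation had 22 of 32 negative (median -0.345). The interleukin-17 and interleukin-22 axis had a median of 0.53. This comparison shares the 9-month arrays with the first and the 3-month arrays with the second, so the 3 sets of values are not independent of each other.

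**Figure D2:**
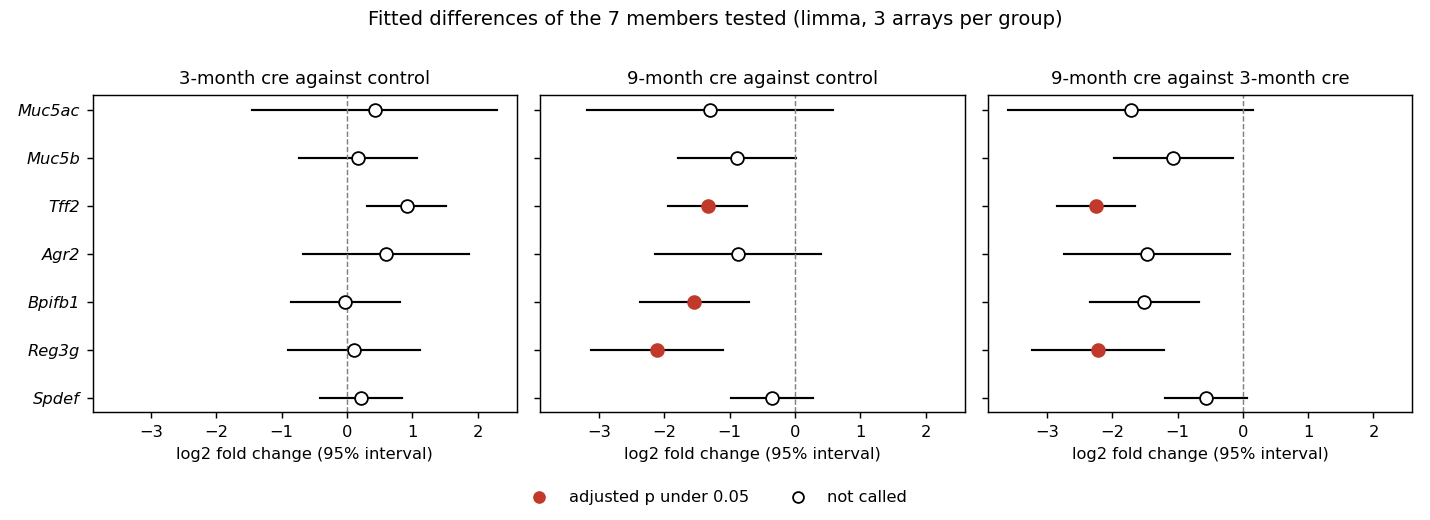
Log2 fold changes of the 7 tested genes with 95% intervals for the 3 comparisons, from 1 limma fit over 3 arrays per group; filled points had an adjusted p under 0.05. All 7 points lie below 0 in the 2 comparisons with 9-month cre lungs, where 3 and 2 were called, and in the 3-month comparison none was called.

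Slide and sex moved with the groups, and the calls rested on small margins. With slide as a fixed block no member was called at 9 months against control. In that fit Tff2 differed by -1.02, Bpifb1 by -0.49 and Reg3g by -0.57 (adjusted p = 0.985 for each), and the slide term there rests on the 3-month arrays alone, since no control was on slide 2. Within slide 2, where the 9-month arrays and 3-month replicates 2 and 3 could be compared directly, Tff2 differed by -2.15, Reg3g by -1.70 and Bpifb1 by -1.16, with no call. Within slide 1, where 3-month replicate 1 stood alone against the 3 controls, the median of the 7 was 0.67. With sex as a covariate the 9-month differences were -1.11 for Tff2, -1.52 for Bpifb1 and -2.05 for Reg3g, with no call. Among arrays read as male (3 controls and 9-month replicate 1) Tff2 differed by -0.92, Bpifb1 by -1.44 and Reg3g by -1.94, while Muc5b, Spdef and Agr2 were 0.17, 0.28 and 0.06 above control. No member was called against control when any 1 of the 3 controls or 3-month replicate 2 was left out, and 1 was called without 9-month replicate 3. Against 3-month cre none was called without 3-month replicate 1 or 2, and 1 was called without control replicate 1, control replicate 2 or 9-month replicate 3. The parts of slide and sex in the differences were not tested beyond these fits.

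The members were not all equally alike in their patterns over the 9 arrays. Bpifb1 and Reg3g had the most alike patterns over the 9 arrays (Pearson r = 0.965, Spearman rho = 0.95), and Agr2 and Spdef came next (r = 0.92, rho = 0.9). By Pearson r, Bpifb1 and Muc5ac were least alike (r = 0.506, rho = 0.617), and by Spearman rho, Bpifb1 and Muc5b were (r = 0.615, rho = 0.4). Each r is over 9 arrays that share the 3 groups and 2 slides, so it describes these arrays and carries no p. Among controls, replicate 1 was highest for 6 of the 7 tested genes, Muc5b being highest in replicate 3. Among 3-month lungs, replicate 1 was highest for all 7 and replicate 3 lowest for 6. Among 9-month lungs, replicate 1 was highest for Muc5b, Tff2, Spdef and Agr2, replicate 2 for Bpifb1 and Reg3g, and replicate 3 for Muc5ac.

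For each tested member, the 5 genes with the highest Pearson r over the 9 arrays were found among 14662 genes. Muc5ac was most like Olfr170 (r = 0.981), listed as an odorant receptor, and Clca1 (r = 0.924), a secreted goblet cell protein that processes mucus. The Clca1 level was 6.0, -1.13 and 0.19 in controls, 3.06, 0.25 and 1.10 at 3 months and -2.28, -4.52 and -2.92 at 9 months. It was thus highest in control replicate 1, as Muc5ac was, and all 9-month arrays were below all others. The 9-month difference of -4.93 ± 1.68 from control was not called (adjusted p = 0.108), with the controls spanning over 7 log2 units.

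Tff2 was most like Icam4 (r = 0.975), which encodes an adhesion molecule, and Gkn3 (r = 0.973), which encodes a gastrokine of the stomach lining. Gkn3 read -0.43, -0.80 and -0.79 in controls, -0.08, -0.20 and -0.23 at 3 months and -1.67, -1.76 and -1.45 at 9 months. It had the same order of groups as Tff2, with no overlap between any pair of them, and it fell against control at 9 months (-0.95 ± 0.14, adjusted p = 0.0151) and against 3-month cre (-1.46 ± 0.14, adjusted p = 0.0179). Nipa1, Susd4 and Gpx2, which encodes a glutathione peroxidase of epithelia, followed with r between 0.95 and 0.956.

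Bpifb1 and Reg3g were among each other's 5 and shared Utrn (r = 0.966 and 0.969), which encodes utrophin. Utrn differed far less in size, by -0.40 ± 0.09 at 9 months against control (adjusted p = 0.0448), so likeness of pattern here did not mean likeness of fold. Agr2 and Spdef were likewise among each other's 5 and shared Hp1bp3 (r = 0.93 and 0.941), a chromatin protein gene with a difference of -0.12 ± 0.10. Agr2 was most like Ccl24 (r = 0.945), an eosinophil attractant, which read 0.21, -1.12 and -2.27 in controls and -1.82, -3.08 and -2.39 in 9-month lungs (-1.37 ± 0.58, adjusted p = 0.172). Spdef was most like Prmt2 (r = 0.965), and Muc5b most like Ppid and Norad (r = 0.955 for both).

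**Figure D3:**
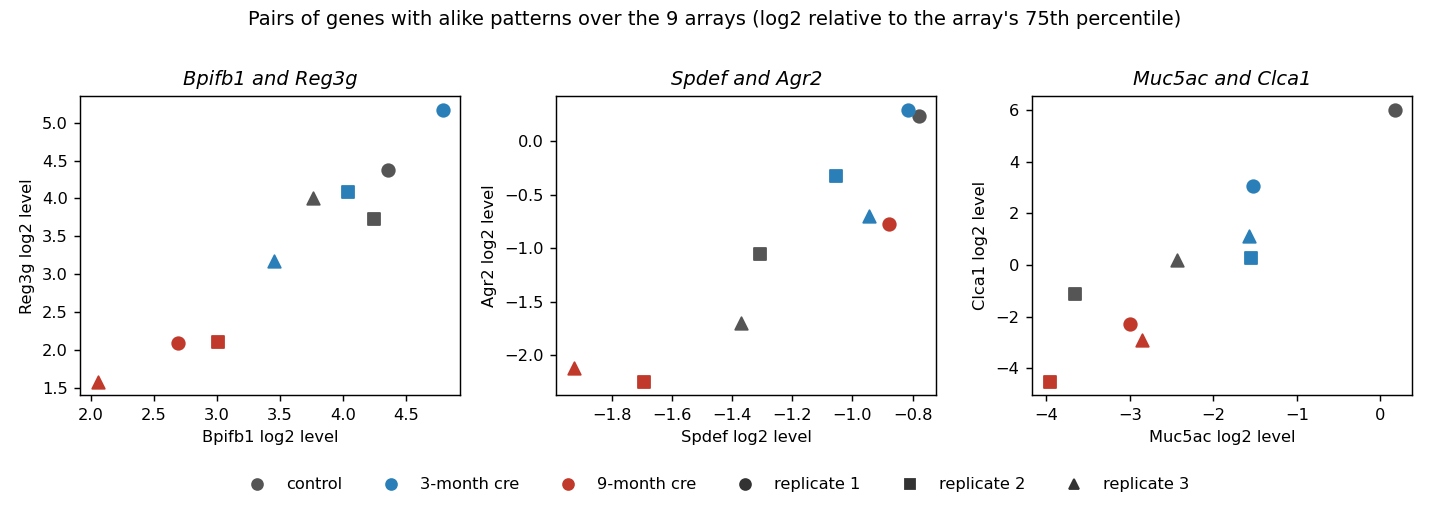
Levels of 3 pairs of genes on the 9 arrays (log2 relative to the array's 75th percentile on both axes), coloured by group and shaped by replicate. Bpifb1 and Reg3g put all 9-month arrays at the lower left (r = 0.965). Spdef and Agr2 put 9-month replicate 1 within the range of the controls (r = 0.92), and Muc5ac and Clca1 put control replicate 1 at the upper right (r = 0.924).

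Of 32 tested genes for the secretion, glycosylation and maturation of mucus, 2 rose and 1 fell against control at 9 months, with 3.65% of all genes called higher and 2.81% lower, and the list's median was 0.15. Clca3a2 rose (2.04 ± 0.38, adjusted p = 0.0259), as did Galnt6 (0.82 ± 0.16, adjusted p = 0.0294), an enzyme that starts O-glycan chains. Ern2, the stress sensor of mucus-making cells that supports mucin folding, fell by 1.81 ± 0.39 on the log2 scale (adjusted p = 0.0355). Its brighter probe read -1.12, -1.92 and -2.09 in controls and -2.83, -3.74 and -4.0 in 9-month lungs, while its other probe stayed between -5.64 and -5.04 in all lungs. Of 6 other mucin genes tested none was called against control, and Muc4, a membrane mucin, was 0.70 ± 0.22 above it (adjusted p = 0.0924). Muc1, a membrane mucin of alveolar and airway cells, was lower at 9 than at 3 months (-0.79 ± 0.18, adjusted p = 0.0479).

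Itln1 and Fcgbp, further goblet cell genes, varied widely among the controls. Itln1, which encodes the lectin intelectin, read -0.01, -5.06 and -7.05 in controls, 1.18, 0.17 and -0.56 at 3 months and -1.18, -3.35 and -2.91 at 9 months. Its 3-month mean was above control by 4.30 ± 1.56 (adjusted p = 0.202), with 2 of 3 controls well above background. Fcgbp, which encodes a mucin-binding protein, read 1.96, -1.11 and -0.81 in controls and -2.12, -1.55 and -2.08 at 9 months. For both genes replicate 1 was the highest control, as for Clca1 and for 6 of the 7 tested members (all but Muc5b). Itln1 and Fcgbp were picked after their values were seen.

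Unlike Reg3g and Bpifb1, 14 of 20 other epithelial antimicrobial genes had a positive difference from control at 9 months. Of the 20, 3 rose and 1 fell, where 3.65% of all genes rose and 2.81% fell. Their median was 0.51, against 0.02 over all genes. Slpi, an antiprotease of airway secretions, rose by 1.53 ± 0.16 (adjusted p = 0.00897). Lcn2, a siderophore-binding protein, rose by 2.16 ± 0.26 (adjusted p = 0.00994), and Camp, the cathelicidin also found in neutrophil granules, rose by 4.91 ± 0.79 (adjusted p = 0.0182). Bpifb5, a relative of Bpifb1, fell by 1.45 ± 0.19 (adjusted p = 0.0117), from -0.72, -1.28 and -0.92 in controls to -2.11, -2.55 and -2.63. Bpifa1, a further relative, read 1.21, 5.29 and 3.23 in controls and 2.66, 3.51 and 0.62 at 9 months, with overlap. The Reg3a and Reg3b probes were well above background on no array. At 3 months against control Lcn2 (2.12 ± 0.26, adjusted p = 0.0258) and Slpi (1.49 ± 0.16, adjusted p = 0.0208) were also called higher. Reg3g and Bpifb1 differed from control by 0.11 and -0.03 there.

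Genes linked to the mucous program by cytokine signalling, as signals, receptors or induced targets, were mixed. Of 25 tested genes of the type 2 cytokine axis, 1 rose and 1 fell against control at 9 months, with a median of 0.09. Among all genes, 3.65% rose and 2.81% fell. Alox15, a lipoxygenase induced by interleukin-4 and interleukin-13, was well above background on all controls and on no 9-month array, and was at least 3.22-fold lower than control (adjusted p = 0.0125), the bound being set by the dimmest probes above background on each array. Il13ra1, a chain of the interleukin-13 receptor, rose by 0.57 ± 0.13 (adjusted p = 0.0383). Il13 itself was well above background on 1 array and Il5 on none, and neither was tested. Between the cre groups 4 of the 25 were lower at 9 months, where 3.2% of all genes were. Among the 4 were Arg1 (-2.81 ± 0.59, adjusted p = 0.0408) and Chia1, an acidic chitinase (-1.23 ± 0.26, adjusted p = 0.0409).

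Of 18 tested genes of the interleukin-17 and interleukin-22 axis, 5 rose at 9 months and none fell, with a median of 1.69. Among all genes, 3.65% rose and 2.81% fell. The 5 included Saa3 (4.42 ± 0.72, adjusted p = 0.0188), the neutrophil attractant Cxcl1 (2.24 ± 0.54, adjusted p = 0.0479) and the receptor chain Il22ra1 (2.56 ± 0.54, adjusted p = 0.034). Reg3g is known as a target of interleukin-22 signalling. In these lungs Reg3g was lower at 9 months and Il22ra1 higher on its brighter probe, its other probe being well above background on no array. The brighter Il22 probe read -4.42, -4.73 and -5.58 in controls and -4.89, -4.51 and -4.9 at 9 months. A link between this axis and Reg3g was not tested. Of 34 tested regulators of goblet cell fate 3 rose and 2 fell. Ereg, an epidermal growth factor receptor ligand, rose (2.25 ± 0.35, adjusted p = 0.018, with 2 of 3 controls well above background). Of 20 genes of protein folding in the endoplasmic reticulum, Ern2 alone was called, and the median was 0.09.

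**Figure D4:**
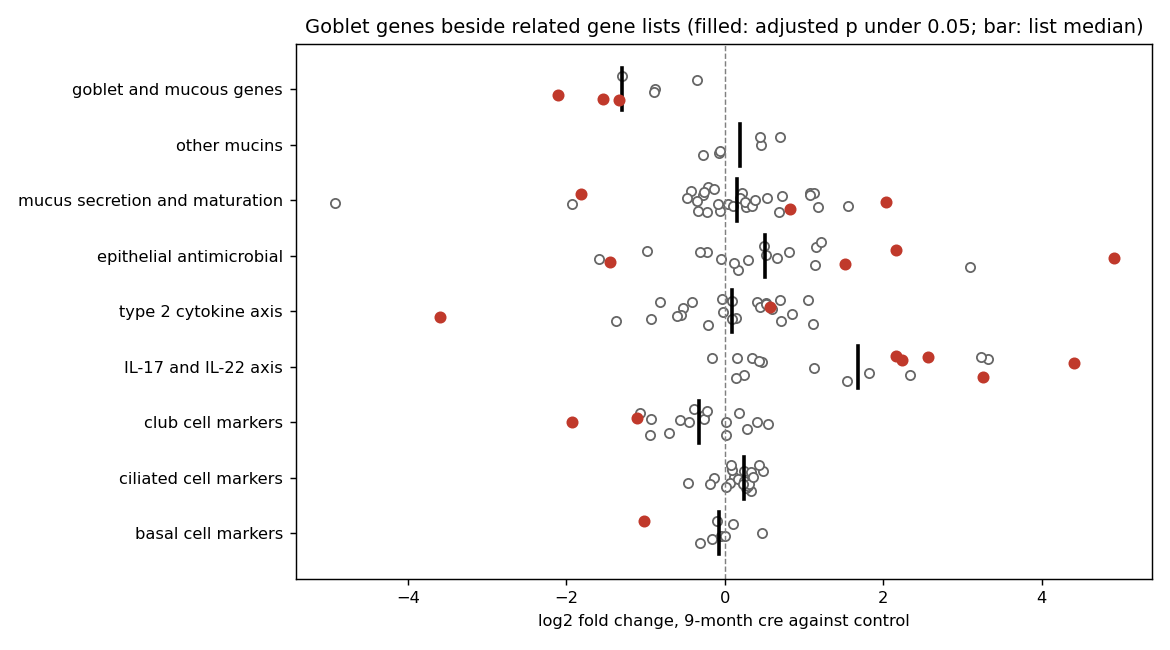
Log2 fold changes of single genes, 9-month cre against control, for the goblet and mucous genes and 8 related lists; filled points had an adjusted p under 0.05 and the black bar is the list's median. The goblet and mucous genes had a median of -1.30 with all 7 points below 0, against 0.15 for mucus secretion and maturation, -0.33 for club cell markers and 0.25 for ciliated cell markers.

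Markers of airway cells gave the setting in which the mucous genes were measured. Among all genes, 2.81% fell and 3.65% rose at 9 months against control. Of 18 club cell markers 2 fell at 9 months against control, Upk3a (-1.93 ± 0.42, adjusted p = 0.0357) and Lypd2 (-1.11 ± 0.26, adjusted p = 0.0436), and the median was -0.33. Of the 18, 12 were negative, and 5 were lower and 1 higher at an unadjusted limma p under 0.05. Among all genes, 27.3% had such a p in either direction. Scgb1a1, the defining club cell protein, read 8.18, 8.10 and 8.02 in controls and 8.52, 8.31 and 8.33 in 9-month lungs, all above the controls, a difference of 0.29 ± 0.13 that was not called (adjusted p = 0.207). The summed level of the club list, each probe's signal divided by the array's 75th percentile and added up, was 1252 to 1347 in controls, 1338 to 1451 at 3 months and 1091 to 1577 at 9 months. Of 21 ciliated cell markers none was called by limma, none had an unadjusted p under 0.05 and the median was 0.25, with summed levels of 274.6 to 312.4, 325 to 355.8 and 218.8 to 365.5. Foxj1, the ciliated cell factor, read 1.89, 2.71 and 2.38 in controls and 3.21, 2.61 and 2.06 at 9 months. For comparison, the 7 mucous genes summed to 52.83 to 66.63 in controls, 46.85 to 97.28 at 3 months and 17.31 to 34.88 at 9 months. In this sum the 9-month lungs lay below all others. Each sum follows its brightest probes. Among the mucous genes these were Muc5b, Bpifb1 and Reg3g, with mean control levels of 4.23, 4.12 and 4.04. Tff2, Agr2, Spdef and Muc5ac, with control means of 1.84, -0.84, -1.15 and -1.98, added little. Of 8 basal cell markers Dapl1 fell (-1.02 ± 0.23, adjusted p = 0.0383), with summed levels of 33.32 to 44.78 in controls and 42.1 to 43.59 at 9 months. All 18 club and all 21 ciliated markers were well above background on every array. The part of club or other airway cell numbers in the lower mucous genes was not tested.

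Because Tff2 and Gkn3 are also stomach genes, and airway pieces can differ in how much upper airway they hold, markers of other tissues were read as well. For scale, 3.65% of all genes were called higher and 2.81% lower at 9 months against control. Of 7 tested stomach and gut genes Gkn3 alone fell at 9 months, and the summed level was 2.487 to 3.313 in controls and 2.838 to 4.086 at 9 months. Of 5 tested pancreas genes Cpb1 fell (-1.31 ± 0.20, adjusted p = 0.0173), with sums of 0.8532 to 1.011 and 0.7044 to 0.8905. None of 4 tested airway cartilage genes (sums of 1.321 to 3.1 in controls and 1.601 to 4.892 at 9 months) and none of 5 oesophagus genes (2.462 to 2.783 and 1.867 to 2.621) was called by limma, with 1 higher and 1 lower, respectively, at an unadjusted p under 0.05. Of 11 gland markers 1 rose, Oxtr (0.96 ± 0.23, adjusted p = 0.0453), with sums of 74.45 to 128.8 and 70.57 to 110.7. Of 9 tuft, neuroendocrine and ionocyte markers Foxi1 was called higher, at least 1.11-fold (adjusted p = 0.0106), with sums of 2.5 to 3.054 and 2.596 to 3.719.

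Some leukocyte markers rose at 9 months against control, where 3.65% of all genes rose and 2.81% fell. Of 14 tested neutrophil markers 4 rose, with a median of 1.69 and sums of 105.8 to 206.9 in controls and 122.7 to 394 at 9 months. Of 11 alveolar macrophage markers 3 rose (median 0.70, sums of 103.5 to 178.3 and 161.9 to 306.3). Of 7 eosinophil markers 1 rose (median 0.38, sums of 6.871 to 15.54 and 9.358 to 15.11). Of 11 mast cell and innate lymphoid markers none was called, with 1 higher and 1 lower at an unadjusted p under 0.05 (sums of 14.91 to 17.38 and 13.41 to 17.6). Of 15 alveolar type II markers 2 fell (median -0.31, sums of 733.5 to 885.9 and 883.3 to 1167), and of 10 alveolar type I markers none was called, with 4 lower at an unadjusted p under 0.05 (sums of 500.2 to 573.1 and 375.1 to 561.3). The part of changed cell makeup in the levels of the mucous genes was not tested.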

How the data were processed

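The 8 genes and all gene lists were chosen with earlier results of these data known. The deposited files hold 1 array each; per the file headers the signal intensity was processed by Feature Extraction 10.7.3.1, with background subtraction, and per the labels each array carried Cy3-labelled total RNA of 1 whole lung. Here log2 of the processed intensity, without irregular spots, was averaged per probe and centred on each array's 75th percentile. Probes well above background on all arrays of at least 1 group were kept (37646 of 56605), and each gene took its brightest probe. Probe names come from RefSeq (GRCm38.p6). The 3 groups entered 1 limma 3.58.1 fit (R 4.3.3; lmFit, eBayes; 6 residual degrees of freedom), adjusted by Benjamini-Hochberg over 16842 genes and called at 0.05. With 3 arrays per group, their number limits the precision. Fold changes are differences of mean log2 levels. The method was tested on simulated data. All 8 genes were named in each comparison, as were up to 4 called genes of each list with the largest differences (up to 2 as values where none was called) and the 5 genes most like each member; levels of known markers were added after their values were seen. Alternatives covered background correction, scaling, the deposited value table (normalized intensity on a linear scale, log2 taken here), filters, slide, sex, replicate number, probe choice and arrays left out.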

Additional observations from a re-analysis of the deposited data

Results flagged for a closer look

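Tff2 and Reg3g differed between the cre groups, each of which was set against the same 3 controls. The Tff2 level at 9 months was 2.25 log2 units lower than at 3 months (a difference of -2.25, adjusted p = 0.0179), with all 9-month arrays below and all 3-month arrays above the controls. The Reg3g difference was -2.22 (adjusted p = 0.0375), with the 3-month arrays on both sides of the controls. The 3-month mice were younger, at 5 against 11 months, so age and time on tamoxifen cannot be told apart. No group of 3 arrays was tested for single arrays standing apart.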

How the results depend on the processing

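Over 21 fold changes and their alternatives, 504 values in all, 15 had the opposite sign, none of them called. Where slide, sex and age move with the groups, 3 arrays per group limit what the fits can separate, and the Foxa3 probe was too dim to test.

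At 9 months against control 3 members were called. The count was 0 without a filter on dim probes, 0 with slide as a fixed block, 0 with sex as a covariate, 1 with only the 2 groups fitted and 0 within males. Between the cre groups 2 were called. The count was 1 without the filter, 0 with slide as a fixed block, 1 with sex as a covariate and 0 within slide 2, within males and within females. Leaving out 1 array gave 0 to 3 calls in each of these 2 comparisons and 0 at 3 months. With more probes tested and no filter, Tff2 had an adjusted p of 0.0512 at 9 months against control. For the other losses of a call the cause was not tested. Between the cre groups Bpifb1 was called under 7 of 25 alternatives, and Reg3g was not called under 14 of 25. The within-slide and within-sex values were chosen after seeing the data. At 9 months against control the adjusted p ranged over the alternatives from 0.00766 to 0.985 for Tff2, 0.0118 to 0.985 for Bpifb1 and 0.00845 to 0.985 for Reg3g.

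The values of opposite sign were, within males, Muc5b at 0.166, Spdef at 0.275 and Agr2 at 0.063 for 9 months against control, and Muc5b at 0.062 and Spdef at 0.178 between the cre groups. For 3 months against control they were Muc5ac at -0.422 without control replicate 2, and Bpifb1 at 0.672 with slide as a fixed block and within slide 1, at 0.09 and 0.035 without control replicates 1 and 2, and at 0.294 without 3-month replicate 3. Reg3g was at -0.069 in the deposited values, -0.029 with slide as a random block, -0.047 without control replicate 2 and -0.406 without 3-month replicate 1. Leaving out 1 array gave -0.422 to 1.497 for Muc5ac, -0.379 to 0.294 for Bpifb1 and -0.406 to 0.592 for Reg3g in this comparison.

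The replicate numbers did not pair the arrays: same-numbered arrays of different groups had deviations correlated at -0.236 to 0.045. With a replicate block 3 members were called against control at 9 months, 0 at 3 months and 1 between the cre groups (Reg3g, adjusted p = 0.0627, was not called).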
